A study of Mus musculus with 8 samples.

Results

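Lysosomes are the acidic compartments in which cells break down proteins, lipids and glycans, and autophagy is the route that delivers cytoplasm and organelles to them. The vacuolar ATPase (V-ATPase) pumps protons into the lumen, soluble hydrolases do the digestion, and membrane proteins carry products out. TFEB, TFE3 and their relative MITF form the MiT/TFE family of transcription factors, which bind E-box sequences in the promoters of many of these genes and are held in the cytoplasm when the kinase complex mTORC1 is active at the lysosome. In blood stem cells, lysosomes and autophagy are known for their part in quiescence and in the turnover of mitochondria.

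The 42 genes described here are those rows of the count table whose gene symbol is on a list of lysosome, V-ATPase and autophagy genes. All 42 were found among 54532 gene identifiers, and all 42 passed the filter on low counts, with which 15009 genes were tested. They comprise 2 TFE factors, 16 hydrolases and their activators, 6 membrane and lipid transport proteins, 8 genes of the proton pump and 10 autophagy genes. The RNA came from sorted bone marrow LSK cells, the lineage-negative, Sca-1 positive and c-Kit positive fraction that holds blood stem cells and early progenitors. There were 3 libraries from C57BL/6 mice labelled AML1/ETO, with the genotype Runx1-Runx1t1, and 5 from C57BL/6 control mice with the genotype WT. Both groups were given poly(I:C), which mimics viral double-stranded RNA and evokes an interferon response, in 4 doses of 5 mg/kg on alternate days, and the sort followed after 4 weeks. The sources used here do not give the age of the mice, the promoter or Cre that controls the fusion, or whether each library came from 1 mouse. The p-values therefore reflect only how these libraries varied, which may be technical.

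Library totals ran from 14693080 to 17527043 counted reads. AML1/ETO library 1 and control library 1 stood apart from the other 6 on the second principal component (14.3% of the variance). Scarce transcripts were lost more often in some libraries: where 20 to 50 reads were expected of a gene, the share without a read was 41.4% to 51.1% in AML1/ETO and 46.2% in control library 1, against 10.5% to 27.0% in the other controls. Runx1t1, whose sequence is part of the fusion, stood at 53.9 to 123 CPM (read counts scaled by TMM to a common library total) in AML1/ETO and at 1.58 to 7.68 CPM in controls. Kit, which encodes a sorting marker, stood at 913 to 1697 CPM in AML1/ETO and 378 to 469 CPM in controls. Ly6a, which encodes Sca-1, stood at 221 to 921 CPM and at only 8.26 to 23.4 CPM. The groups also differed in sex-linked RNA: Xist, from the inactive X, had 28559 to 33151 reads in AML1/ETO and 0 to 111 in controls, and Ddx3y on the Y chromosome had none against 3688 to 5038. Genotype and this difference cannot be told apart in any comparison below.

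In all, 8 of the 42 members rose in AML1/ETO cells and 8 fell (adjusted p under 0.05 by the edgeR quasi-likelihood test), and 26 did not pass. Over all tested genes 25.7% passed, 11.6% higher and 14.2% lower. The share of members called, 38.1%, was close to the 35.5% among the 9619 tested genes at least as abundant as the lowest member (16.9% higher and 18.6% lower), so the number of calls did not stand out. The median log2 fold change of members was −0.12, against −0.09 for all tested genes. Calls in both directions occurred among the hydrolases and the membrane proteins, and no difference between roles was tested. The hydrolases Ctsa, Glb1, Neu1 and Gaa, the activator precursor Psap, the calcium channel Mcoln1, and Sqstm1 and Wipi1 of the autophagy group were higher. Tfeb, the proteases Ctss and Ctsz, the lipase Lipa, the membrane protein Scarb2, the sterol carrier Npc2 and the pump subunits Atp6v1b2 and Atp6v1d were lower.

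The rises held under more settings than the falls. The same 8 genes were among the risen when libraries were scaled by DESeq2 size factors, upper quartiles or totals, whereas 3, 4 and 10 members fell under these scalings, so that rises made up 75.0%, 69.2% and 44.4% of the calls in place of 50%. Scaling by totals moved the median over all genes by −0.15 (log2). Leaving out 1 library left 7 to 10 rises but only 1 to 6 falls, with 1 fall without control library 2 or control library 3, 2 without control 4 or control 5, 3 without AML1/ETO library 2 or 3 and 4 without control 1. Tfeb was the fallen member that passed under all 18 alternatives. The plot of calls by setting gives both counts for each alternative. RNA from sorted cells in bulk cannot tell less RNA per cell from fewer cells of a type, here or in the results that follow.

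**Figure D1:**
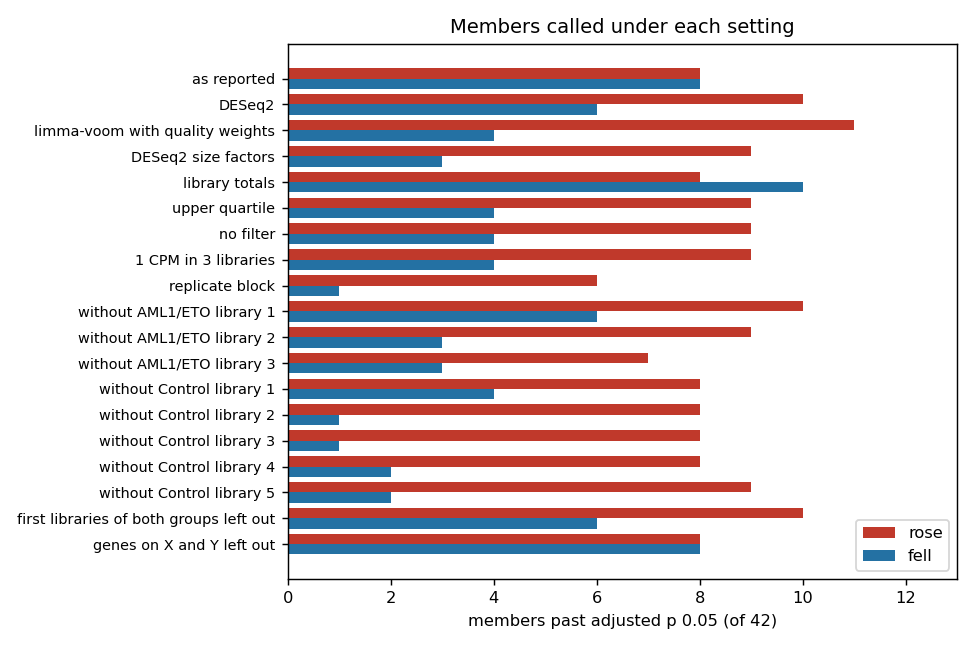
Number of the 42 members that rose (red) and fell (blue) at adjusted p under 0.05, as reported and under each of 18 alternatives. Rises range from 6 to 11, while falls range from 1 to 10.

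**Figure D2:**
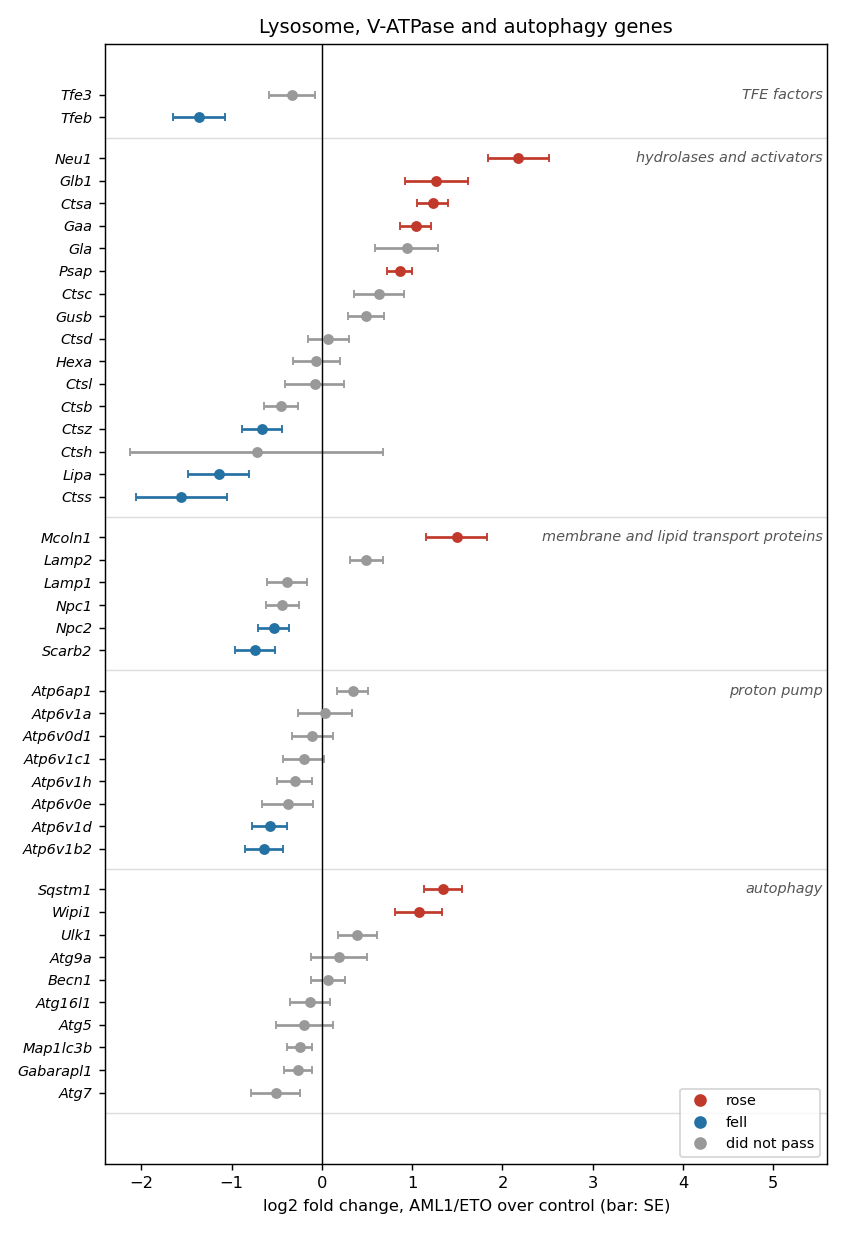
Log2 fold change of each of the 42 members, AML1/ETO over control (points; bars are the SE from the edgeR fit), by role. Rises (red) lie among hydrolases, Mcoln1, Sqstm1 and Wipi1, no gene of the proton pump rose, and 26 members (grey) did not pass.

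The promoter sequences show the E-box that the MiT/TFE factors bind, and which members carry it. RefSeq windows from 250 bases before to 50 bases after each start (GRCm38.p6) were matched for 34 members. Windows for Ctsb, Ctsh, Npc1, Atp6v1b2, Atp6v1c1, Atp6v1h, Becn1 and Atg16l1 were not used here. The hexamer CACGTG, which reads the same on both strands, was in at least 1 window of 13 of the 34 members (38.2%), against 8.09% of all 27025 genes with a window of this length. The longer palindrome TCACGTGA, which contains the hexamer, was in 7 members (20.6%) against 1.12% of all genes. The full CLEAR element, which extends that palindrome by a base on each side, was in 0 of the 34 and in 0.370% of all genes. On the second list of pathway genes, described below, 149 genes had a window. The hexamer, the longer palindrome and the full element were in 20.8%, 9.4% and 2.68% of these. By direction, the hexamer was in 4 of 8 members that rose, in 0 of the 7 fallen members with a window, and in 9 of 19 that did not pass. These are matches of letters, not measured binding.

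The stretches below are those of the risen members and of the members with TCACGTGA or with several hexamers. They are written 5′ to 3′ on the strand of the gene, with the matched letters in capitals. The first 4 belong to members that rose, at chr2:164833748-164833796 (plus strand), chr8:3500436-3500492 (plus), chr11:119267811-119267840 (plus) and chr9:114401018-114401047 (plus).

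Ctsa: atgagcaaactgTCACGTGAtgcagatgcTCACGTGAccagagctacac

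Mcoln1: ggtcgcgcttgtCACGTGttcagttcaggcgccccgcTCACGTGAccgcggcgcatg

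Gaa: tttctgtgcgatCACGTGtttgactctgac

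Glb1: ctgcttctgagtCACGTGgcctacagaggc

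The other 6 belong to members that did not pass, at chr8:13159088-13159163 (plus), chrX:134601181-134601245 (minus), chr7:142387907-142387938 (minus), chr16:44139372-44139403 (minus), chr8:105566049-105566080 (minus) and chr17:26676386-26676417 (plus).

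Lamp1: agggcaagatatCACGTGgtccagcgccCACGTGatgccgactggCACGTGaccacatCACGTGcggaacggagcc

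Gla: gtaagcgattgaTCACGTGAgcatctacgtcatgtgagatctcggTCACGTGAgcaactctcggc

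Ctsd: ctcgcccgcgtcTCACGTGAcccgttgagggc

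Atp6v1a: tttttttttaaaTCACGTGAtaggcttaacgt

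Atp6v0d1: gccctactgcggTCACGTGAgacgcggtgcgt

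Atp6v0e: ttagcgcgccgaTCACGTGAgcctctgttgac

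Lamp1 held the hexamer 4 times and Ctsa and Gla held the longer palindrome 2 times each. Ctsa and Mcoln1, which hold the longer palindrome, rose. Gla, Ctsd and the pump genes Atp6v1a, Atp6v0d1 and Atp6v0e, which hold it too, did not pass. Lamp1, which holds only the hexamer, did not pass either.

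Of the factors themselves, Tfeb fell and Tfe3 did not pass. Tfeb (ENSMUSG00000023990, chromosome 17, 47737030 to 47792419 in mm10) stood at 12.2, 16.1 and 23.3 CPM in AML1/ETO libraries 1 to 3 and at 43.0, 51.3, 45.8, 49.7 and 31.3 CPM in controls 1 to 5. The groups did not overlap, and the mean was 2.57-fold lower in AML1/ETO, at 17.2 ± 5.62 CPM (SD, n = 3) against 44.2 ± 7.93 CPM (SD, n = 5). The log2 fold change was −1.36 (SE 0.29, edgeR adjusted p = 0.00455). Tfe3, on the X chromosome, stood at 82.2, 57.0 and 35.4 CPM against 79.5, 86.7, 63.7, 71.1 and 64.4 CPM. The AML1/ETO libraries spanned a wider range than the controls and overlapped them (log2 fold change −0.33, SE 0.25, edgeR adjusted p = 0.393).

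Their relatives Mitf and Tfec, which are not members, went in opposite directions. Mitf, the family member known for its role in mast cells and pigment cells, stood at 21.1, 72.2 and 82.3 CPM in AML1/ETO and at 0.936, 1.41, 4.29, 3.20 and 6.42 CPM in controls (log2 fold change 4.17, SE 0.60, edgeR adjusted p = 0.000440). Tfec, a family member of macrophages, was not detected in AML1/ETO (0 reads in each library) and stood at 5.12 to 10.8 CPM in controls (88 to 189 reads). Taking 3 counts per library as the floor, which covers counting error only, Tfec was at least 33.3-fold lower (edgeR adjusted p = 0.000843). Where 80 to 150 reads were expected, the share of genes at 0 ranged over 6.49% to 10.6% for AML1/ETO and 0% to 9.34% for controls.

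**Figure D3:**
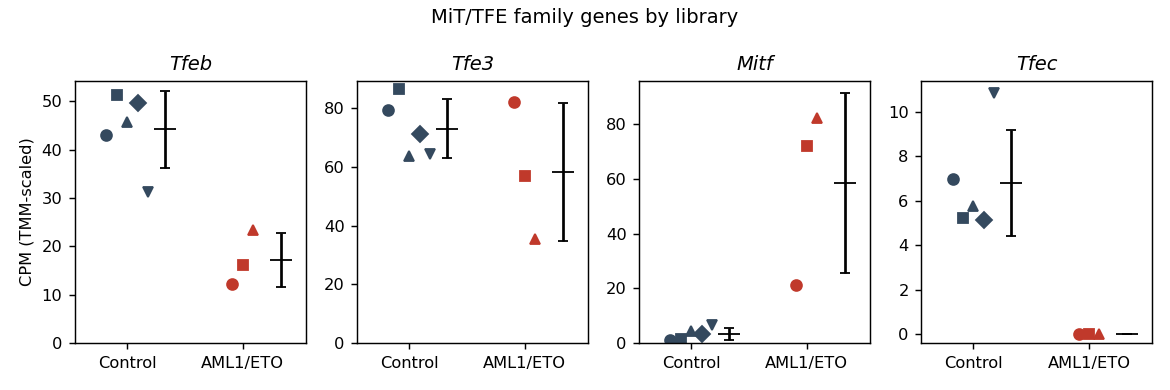
TMM-scaled CPM of Tfeb, Tfe3, Mitf and Tfec in each library (marker shape gives the library number; the black bar is mean and SD; each panel has its own scale). Tfeb at 12.2 to 23.3 CPM in AML1/ETO lies below all controls, Mitf at 21.1 to 82.3 CPM lies above them, and Tfec is at 0.

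Among the 16 hydrolases and activators 5 rose (31.2%), 3 fell (18.8%) and 8 did not pass, with a median log2 fold change of 0.28. Among tested genes at least as abundant as the lowest member 16.9% rose and 18.6% fell. The products of Ctsa, Glb1 and Neu1 are known to form a complex, in which cathepsin A (Ctsa) is a carboxypeptidase that protects beta-galactosidase (Glb1) and the sialidase Neu1 from breakdown. Ctsa (chromosome 2, 164832873 to 164841032) stood at 151, 166 and 198 CPM in AML1/ETO and at 62.1, 79.5, 86.2, 76.5 and 62.9 CPM in controls. It rose 2.34-fold, with a wide gap between the groups (log2 fold change 1.23, SE 0.17, edgeR adjusted p = 0.000337). Neu1 (chromosome 17, 34931253 to 34935953) stood at 62.5, 40.9 and 63.4 CPM against 8.66, 7.21, 16.6, 10.4 and 18.6 CPM. It had the largest fold of the 42, at 4.52-fold (log2 fold change 2.18, SE 0.34, edgeR adjusted p = 0.000748). Glb1 (chromosome 9, 114401076 to 114474898) stood at 44.4, 66.9 and 147 CPM against 23.0, 44.1, 29.0, 39.6 and 42.9 CPM. Its lowest AML1/ETO library lay just above the highest control, and library 3 carried much of the difference (2.41-fold, log2 fold change 1.27, SE 0.35, edgeR adjusted p = 0.0199). Without that library Glb1 was 1.56-fold higher and did not pass (adjusted p = 0.176).

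Gaa, the acid alpha-glucosidase that digests glycogen (chromosome 11, 119267887 to 119285454), stood at 162, 139 and 205 CPM against 92.2, 92.4, 71.5, 71.4 and 83.6 CPM. It rose 2.05-fold with no overlap (log2 fold change 1.04, SE 0.17, edgeR adjusted p = 0.00115). Psap, the precursor of the saposins that help hydrolases reach sphingolipids (chromosome 10, 60277627 to 60302597), stood at 622, 644 and 689 CPM against 352, 326, 418, 307 and 390 CPM. The AML1/ETO libraries were close together and all above the controls, a 1.82-fold rise (log2 fold change 0.86, SE 0.14, edgeR adjusted p = 0.000902).

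Gla, the alpha-galactosidase on the X chromosome, stood at 96.6, 28.8 and 58.6 CPM against 20.7 to 42.4 CPM and did not pass (log2 fold change 0.94, adjusted p = 0.0705). Gusb, the beta-glucuronidase, and Hexa, the alpha chain of beta-hexosaminidase, had log2 fold changes of 0.49 and −0.06 and did not pass. Of the 6 glycosidases, a grouping made after the values were seen, 3 rose and none fell.

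Of the 7 cysteine and aspartic cathepsins among the members, also grouped after the values were seen, none rose and 2 fell. On the second list described below, the cysteine cathepsins Ctsf and Ctsw, named here after their values were seen, rose 6.96-fold and 3.71-fold (edgeR adjusted p = 0.00207 and 0.00261), so cathepsins as a class did not go one way. Ctsd, the main aspartic protease of lysosomes, stood at 209, 217 and 375 CPM against 221, 247, 310, 301 and 193 CPM. The groups overlapped fully apart from AML1/ETO library 3 (log2 fold change 0.07, SE 0.23, edgeR adjusted p = 0.874). Ctsb, a cysteine protease, stood at 74.4, 84.2 and 112 CPM against 107, 109, 140, 115 and 146 CPM. Its AML1/ETO libraries 1 and 2 lay below all controls and library 3 among them (log2 fold change −0.46, SE 0.19, edgeR adjusted p = 0.0979). Ctss, the cathepsin that trims the MHC class II invariant chain, fell to 2.50 to 12.4 CPM from 14.1 to 32.8 CPM (log2 fold change −1.56, SE 0.51, edgeR adjusted p = 0.0413). Ctsz, a carboxypeptidase, fell to 40.4 to 52.8 CPM from 54.7 to 98.8 CPM (log2 fold change −0.66, adjusted p = 0.0475). Lipa, the lysosomal acid lipase that frees cholesterol from its esters, fell to 7.78 to 21.3 CPM from 29.8 to 42.8 CPM (log2 fold change −1.15, adjusted p = 0.0279). Ctss, Ctsz and Lipa did not overlap between groups, but each lost its call in several settings: Ctsz under 15 of 18 alternatives, Ctss under 10 and Lipa under 6, with adjusted p up to 0.167, 0.119 and 0.118. Ctsc and Ctsl had log2 fold changes of 0.63 and −0.08. Ctsh had no read in AML1/ETO library 2 or control library 1 and 8.63 to 17.7 CPM elsewhere, so its value of −0.72 (SE 1.40) is loose.

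Markers of other cells moved with these groups. Of 11 mast cell markers 8 rose and none fell. Their summed level was 4205 to 8907 CPM in AML1/ETO and 736 to 886 CPM in controls. Cma1, Mcpt4, Tpsb2 and Tpsab1 were at 0 in every control. Among them only Cma1 was read in every AML1/ETO library (62.5 to 262 CPM). Mcpt4 and Tpsab1 were read in AML1/ETO library 1 alone and Tpsb2 in libraries 1 and 2. Mcpt4, Tpsab1 and Tpsb2 were not tested. Mast cells are rich in lysosome-related granules. Of 13 macrophage and monocyte markers none rose and 4 fell (Csf1r, Cd14, Cx3cr1 and Lyz2). Their sum was 47.6 to 59.9 CPM against 142 to 256 CPM, with Cx3cr1 and Ms4a7 at 0 in every AML1/ETO library, and with Mrc1, C1qb, Ms4a7 and Fcgr1 at 0 in every control. Of 8 dendritic cell markers 3 fell (Itgax, Cd74 and Irf8) and 1 rose (Flt3), at sums of 450 to 607 against 345 to 514 CPM. Flt3, which was also listed as a marker of LSK cells, made up most of these sums. It stood at 405 to 577 CPM in AML1/ETO and 210 to 371 CPM in controls, so the sums mainly follow this gene. Itgax, Siglech and Xcr1 were at 0 in every AML1/ETO library. Siglech and Xcr1 were scarce in controls too (0 to 26 and 0 to 13 reads) and were not tested. Of 10 neutrophil markers none rose and 3 fell, at sums of 0.0654 to 68.3 against 125 to 308 CPM. Mmp9 and Cxcr2 were at 0 in every AML1/ETO library, but Mmp9 had only 0 to 96 reads in controls and did not pass. Of 7 B cell markers 4 fell (Cd79a, Pax5, Ebf1 and Vpreb1) and none rose, at sums of 5.30 to 10.8 against 6.46 to 61.5 CPM. In AML1/ETO those 4 were at 0 in every library, while Ms4a1 was at 0 in all 8 libraries. Of 8 T and NK cell markers 2 could be tested, and Nkg7 fell 15.1-fold, while Cd3d, Cd3e, Cd3g, Cd8a and Ncr1 were at 0 in all 8 libraries. Of 8 erythroid markers 1 rose and 1 fell, and of 7 megakaryocyte markers 2 rose and 2 fell. The part of these cells in the changes of the hydrolases, or of the other members, was not tested.

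**Figure D4:**
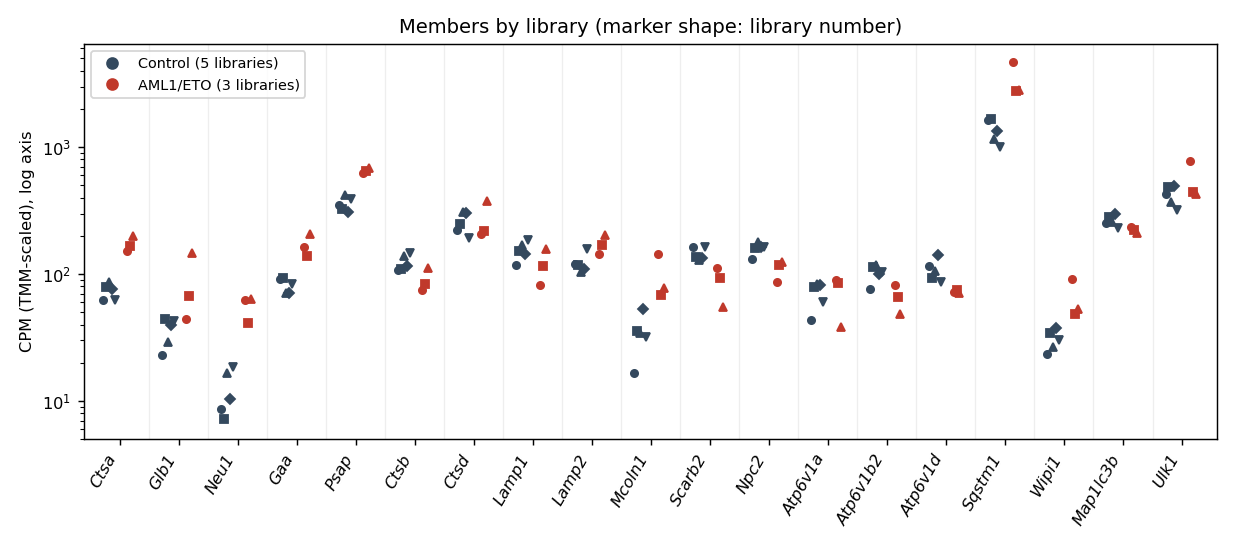
TMM-scaled CPM of named members in each library on a log axis, controls in dark blue and AML1/ETO in red. Ctsa, Neu1, Gaa, Psap, Mcoln1, Sqstm1 and Wipi1 show AML1/ETO libraries above all controls, whereas Ctsd, Lamp1, Atp6v1a, Map1lc3b and Ulk1 overlap.

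Among the 6 membrane and lipid transport genes 1 rose (16.7%) and 2 fell (33.3%). The shares among tested genes at least as abundant as the lowest member were 16.9% and 18.6%. Lamp1 and Lamp2 encode the glycoproteins that line the inside of the lysosomal membrane, and neither passed. Lamp1 stood at 82.5, 116 and 157 CPM against 118, 152, 170, 144 and 187 CPM, with overlap (log2 fold change −0.38, SE 0.22, edgeR adjusted p = 0.237). Lamp2, on the X chromosome, stood at 143, 169 and 204 CPM against 120, 119, 105, 111 and 157 CPM. Control library 5 lay among the AML1/ETO libraries and the other controls below them (log2 fold change 0.49, SE 0.18, edgeR adjusted p = 0.0639). It passed without control library 5 and in 7 other settings (lowest adjusted p = 0.0184 and highest 0.258 over 17 alternatives). The 4 X-linked members, Tfe3, Gla, Lamp2 and Atp6ap1, had log2 fold changes of −0.33 to 0.94 and none passed.

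Mcoln1 encodes mucolipin-1, the channel through which calcium leaves lysosomes (chromosome 8, 3500457 to 3515232). It stood at 144, 67.9 and 77.8 CPM in AML1/ETO and at 16.7, 35.8, 34.1, 53.2 and 32.0 CPM in controls. All AML1/ETO libraries were above all controls, with library 1 the highest. It rose 2.81-fold, or 2.12-fold without library 1 (log2 fold change 1.49, SE 0.34, edgeR adjusted p = 0.00701).

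Scarb2, the receptor that brings glucocerebrosidase to lysosomes (chromosome 5, 92441314 to 92506833), stood at 112, 93.7 and 54.7 CPM against 163, 136, 130, 135 and 163 CPM. It was 1.67-fold lower with no overlap (log2 fold change −0.74, SE 0.22, edgeR adjusted p = 0.0296). Npc2 and Npc1 hand cholesterol from the lumen to the membrane in turn. Npc2 (chromosome 12, 84754562 to 84773152) stood at 87.0, 119 and 125 CPM against 131, 160, 179, 163 and 164 CPM, 1.45-fold lower (log2 fold change −0.53, SE 0.17, edgeR adjusted p = 0.0415). The highest AML1/ETO library lay just under the lowest control. Npc1 had a log2 fold change of −0.44 and did not pass (adjusted p = 0.0981). The calls of Scarb2 and Npc2 were lost under 7 and 12 of 18 alternatives, with adjusted p up to 0.0847 and 0.120.

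No gene of the proton pump rose, 2 of 8 fell (25%), and 6 did not pass, with a median log2 fold change of −0.25. Among tested genes at least as abundant as the lowest member 16.9% rose and 18.6% fell. The V-ATPase has a V1 sector in the cytosol that splits ATP and a V0 sector in the membrane that moves protons. Atp6v1a, the catalytic subunit, stood at 89.9, 85.2 and 38.0 CPM against 43.2, 79.1, 83.1, 81.6 and 60.1 CPM. The AML1/ETO libraries spread on both sides of the controls (log2 fold change 0.03, SE 0.30, edgeR adjusted p = 0.960). Atp6v1b2, the partner that forms the ATPase ring with it, stood at 81.8, 66.3 and 48.8 CPM against 76.3, 113, 119, 99.8 and 104 CPM. AML1/ETO library 1 lay above control library 1 and the rest were separate (log2 fold change −0.64, SE 0.21, edgeR adjusted p = 0.0448). Atp6v1d, a subunit of the central rotor, stood at 71.9, 75.2 and 71.2 CPM against 117, 92.4, 105, 143 and 86.2 CPM, with no overlap (log2 fold change −0.58, SE 0.19, edgeR adjusted p = 0.0447). Both were near the threshold. Atp6v1b2 lost its call under 11 and Atp6v1d under 15 of 18 alternatives, with adjusted p up to 0.201 and 0.157. Atp6v1c1, Atp6v1h, Atp6v0d1 and Atp6v0e had log2 fold changes of −0.20, −0.30, −0.10 and −0.38. Atp6ap1, an accessory subunit on the X chromosome, was higher in every AML1/ETO library (109, 115 and 115 CPM) than in any control (71.8 to 105 CPM) but did not pass (log2 fold change 0.34, adjusted p = 0.161).

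In the autophagy group 2 of 10 rose (20%) and none fell. The shares among tested genes at least as abundant as the lowest member were 16.9% and 18.6%. Sqstm1 encodes p62, the receptor that ties ubiquitinated cargo to the forming autophagosome, and is itself degraded there (chromosome 11, 50199366 to 50210827). It was the most abundant member per exon length, at 1027 CPM per kilobase in AML1/ETO and 405 in controls, followed by Psap at 237 and 131 and Ctsd at 114 and 108. Its CPM were 4704, 2792 and 2844 in AML1/ETO and 1629, 1659, 1168, 1346 and 998 in controls. The groups were well separated, with AML1/ETO library 1 the highest, and the rise was 2.53-fold (log2 fold change 1.34, SE 0.21, edgeR adjusted p = 0.000734). Of its exon bases 17.3% overlap Mrnip, and 10.5% of those of Ctsa overlap Pltp, both on the other strand. Overlaps on the other strand were larger for Becn1 (43.9%), Gabarapl1 (28.3%) and Ctsl (26.8%). Such shared reads cannot be assigned where counting ignored strand. Ctsd (34.4%) and Atg9a (31.8%) overlap a gene on the same strand, where shared reads cannot be assigned under either setting. Summed over the 42 members, AML1/ETO libraries held 7847 ± 1270 CPM (SD, n = 3) and controls 5307 ± 273 CPM (SD, n = 5). Without Sqstm1 the sums were 4401 ± 271 and 3947 ± 121 CPM.

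Wipi1, a phosphoinositide-binding protein of the early autophagosome membrane (chromosome 11, 109573331 to 109611967), stood at 90.9, 48.2 and 53.0 CPM against 23.3, 34.4, 26.5, 37.4 and 30.5 CPM. It rose 2.11-fold with no overlap (log2 fold change 1.07, SE 0.26, edgeR adjusted p = 0.00993). Without AML1/ETO library 1 it was 1.66-fold higher and did not pass, and its adjusted p over the alternatives ran up to 0.0771.

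The other 8 autophagy members did not pass the test. Map1lc3b, the LC3 protein that is joined to lipid on the autophagosome, stood at 236, 223 and 210 CPM against 254, 282, 257, 298 and 231 CPM. AML1/ETO library 1 overlapped the lowest control (log2 fold change −0.25, SE 0.14, edgeR adjusted p = 0.230). Its relative Gabarapl1 was lower in every AML1/ETO library (115 to 139 CPM) than in any control (143 to 179 CPM) and did not pass either (log2 fold change −0.26, adjusted p = 0.229). Ulk1, the kinase that starts autophagy, stood at 782, 447 and 426 CPM against 426, 484, 373, 497 and 319 CPM. AML1/ETO library 1 was high and the other 2 lay within the controls (log2 fold change 0.39, SE 0.22, edgeR adjusted p = 0.219). Becn1, the class III PI3-kinase subunit, and the conjugation factors Atg5, Atg7 and Atg16l1 had log2 fold changes of 0.06, −0.20, −0.51 and −0.13, and the lipid scramblase Atg9a of 0.19.

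Groups did not overlap for 9 of the 42 members on the higher side and for 8 of the 42 on the lower side. Over all tested genes the shares were 14.1% and 17.5%. That reference includes genes scarcer than any member, so these counts were not read as standing out. The members varied more within AML1/ETO than within the controls, with a median coefficient of variation of 32.2% against 16.7%. Within AML1/ETO the roles differed in which library was highest. Library 3 was highest for 11 of the 16 hydrolases and activators, and library 1 for 6 of the 10 autophagy genes. Library 3 also had the highest Cpa3, a mast cell protease, at 6135 CPM against 1771 and 3627 CPM in libraries 1 and 2. The other mast cell markers were divided. Cma1, Ms4a2, Fcer1a, Srgn, Slc18a2 and Rab27b were highest in library 3. Hdc, Mcpt4, Tpsb2 and Tpsab1 were highest in library 1, with Hdc at 487 CPM against 208 and 250 CPM in libraries 2 and 3. Whether these differences go together was not tested.

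A second list of 186 other genes of the pathway, of which 172 could be tested, gives the setting. Of these 34 rose (19.8%) and 17 fell (9.88%), with a median log2 fold change of 0.11. Over all tested genes 11.6% rose and 14.2% fell. Among tested genes at least as abundant as the lowest member the shares were 16.9% and 18.6%. No difference from these shares was tested. Scaling by totals gave 29 rises and 27 falls on the second list, so that rises made up 51.8% of its calls in place of 66.7%. Of the hydrolases 16 of 48 rose (33.3%) and 3 fell, with the highest median of the roles, 0.39. Gnptab, the enzyme that begins the mannose 6-phosphate tag on hydrolases, rose 3.35-fold, from 122 ± 15.3 CPM in controls to 407 ± 55.8 CPM (log2 fold change 1.74, edgeR adjusted p = 1.38e-05). Napsa, an aspartic protease, rose 3.09-fold and the alpha-mannosidase Man2b1 2.67-fold.

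Receptors for the mannose 6-phosphate tag did not follow Gnptab. M6pr fell 2.14-fold, to 129 ± 22.0 from 276 ± 44.5 CPM (log2 fold change −1.10, edgeR adjusted p = 0.00107). Igf2r, the larger receptor, was likewise at 0 in AML1/ETO and stood at 4.99 to 7.57 CPM in controls, at least 30.5-fold lower by the same floor of 3 counts per library (edgeR adjusted p = 0.000950). Of 33 other membrane and transport genes 2 rose (6.06%) and 6 fell (18.2%), against 11.6% and 14.2% of all tested genes. Of the tested genes at least as abundant as the lowest member 16.9% rose and 18.6% fell. Tpcn1, a cation channel of endosomes and lysosomes, fell 12.6-fold to 23.4 ± 5.49 from 295 ± 49.7 CPM (log2 fold change −3.66, SE 0.23, edgeR adjusted p = 9.84e-07). That is opposite in direction to the channel gene Mcoln1. Cd63, a tetraspanin of late endosomes and of mast cell granules, rose 4.29-fold.

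Of 15 other tested pump genes 2 rose (13.3%) and 2 fell (13.3%), close to the 11.6% and 14.2% of all tested genes. Another 8 were not tested, all of them without a read in any library. Among the a-subunit isoforms, which place the pump in different membranes, 1 fell and 1 rose. Tcirg1, which encodes a3, stood at 87.6, 142 and 71.5 CPM against 291 to 333 CPM and fell 3.04-fold (log2 fold change −1.61, edgeR adjusted p = 0.000270). Atp6v0a2 stood at 110, 92.8 and 89.1 CPM against 44.8 to 59.8 CPM and rose 1.81-fold (log2 fold change 0.85, edgeR adjusted p = 0.00329). Atp6ap2, the accessory subunit known as the prorenin receptor, fell 2.63-fold. Atp6v1g2 rose to 16.3 ± 8.01 from 4.52 ± 1.42 CPM, and did not pass without AML1/ETO library 2 or 3. It shares exon sequence with Nfkbil1 on the other strand.

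Among 20 genes of the MiT/TFE relatives and of nutrient sensing at the lysosome 7 rose (35%) and 2 fell (10%). Over all tested genes the shares were 11.6% and 14.2%, and over those at least as abundant as the lowest member 16.9% and 18.6%. Besides Mitf the risen ones included Slc38a9, the arginine sensor of the lysosomal membrane, 3.73-fold, and Rptor, which recruits substrates to mTORC1, 2.59-fold. Rragd, a Rag GTPase, had no read in AML1/ETO against 3.93 to 10.6 CPM in controls (67 to 185 reads). By the floor of 3 counts per library it was at least 37.8-fold lower. That floor covers counting error only, not the loss of scarce transcripts seen in these libraries. Of 56 other autophagy genes 7 rose (12.5%) and 4 fell (7.14%). Ulk2, the paralogue of Ulk1, rose 4.25-fold to 118 ± 10.1 from 27.7 ± 4.15 CPM (log2 fold change 2.09, SE 0.19, edgeR adjusted p = 1.58e-05). The receptor-like genes moved in both directions: Calcoco1 rose 2.73-fold beside Sqstm1, and Tax1bp1 fell 2.01-fold. Zfyve1, a protein of the sites where autophagosomes form, rose 2.41-fold.

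**Figure D5:**
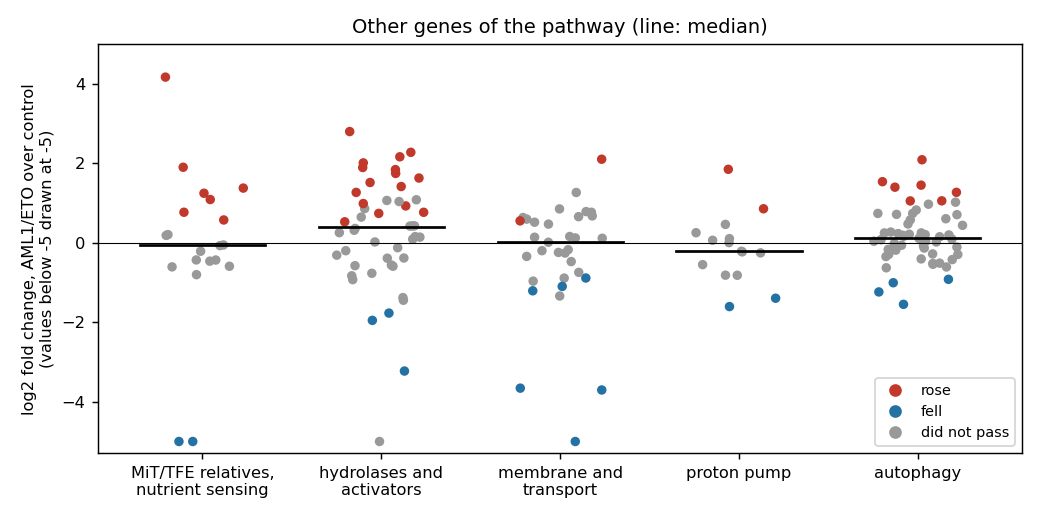
Log2 fold change, AML1/ETO over control, of the 172 tested genes of the second list by role; each point is a gene, the line is the median and values below −5 are drawn at −5. Hydrolases have 16 red points (rose) and the highest median, 0.39, and the autophagy genes cluster near 0 with 45 of 56 not passing.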

How the data were processed

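RNA-seq of sorted LSK cells was compared between 3 AML1/ETO and 5 control libraries. The deposited table holds raw read counts per gene, and the authors aligned with HISAT2 2.0.5 to mm10 and counted with featureCounts 1.5.0-p3, per the submitters' processing notes. Strand setting, annotation release and handling of multi-mapped reads: not given in the sources used here.

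From these counts, edgeR 4.0.16 (R 4.3.3; filterByExpr, TMM, quasi-likelihood test without covariates, Benjamini-Hochberg over all 15009 genes tested) gave log2 fold changes. Standard errors were derived from the F statistic. The script was checked on simulated counts. CPM use TMM-scaled totals, and values per kilobase use exon lengths of GENCODE M21, matched for 54495 identifiers. Promoter windows are RefSeq's (GRCm38.p6).

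The 42 members and all lists were chosen with earlier results of these data known. Library values are given for 10 set members and for up to 5 called members per role by p, and for the second list up to 4 per role plus Mitf and Tfec. 1 gene that this rule names is not reported here. Alternatives used DESeq2 1.42.0, limma 3.58.1 voom with quality weights, other scalings and filters, a replicate block, and left-out libraries or sex chromosomes.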

Additional observations from a re-analysis of the deposited data

Results flagged for a closer look

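Lamp2 in control library 5 stood at 157 CPM, whereas the other 4 controls lay between 105 and 120 CPM. The gap to its nearest neighbour was 0.717 of the range of the controls, above Dixon's 95% critical value of 0.71 for 5 samples. It was the only one of the 42 members with such a control value, and chance gives about 1 in 20 groups. Without this library the log2 fold change of Lamp2 was 0.63 in place of 0.49 and passed the threshold (edgeR adjusted p = 0.0255 in place of 0.0639).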

How the results depend on the processing

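Of the members that rose, 6 of 8 passed under all 18 alternatives, and of those that fell 1 of 8 did (Tfeb, log2 fold change −1.65 to −1.17). The count of fallen members, 8 as reported, was 4 with limma-voom, upper-quartile scaling, no filter or a filter of 1 CPM, and 3 with DESeq2 size factors. Leaving out 1 library gave 1 to 6 fallen members, 1385 to 1752 risen and 1537 to 2287 fallen genes of all tested, and 26 to 40 risen and 13 to 25 fallen genes of the second list. Scaling by totals gave 27 fallen genes of the second list in place of 17. Risen genes made up 44.9% of all calls as reported, 34.2% with totals and 49.9% with DESeq2 size factors.

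Same-numbered libraries correlated at 0.0388, −0.039 and 0.0271 in their deviations from the group means. AML1/ETO library 1 correlated best with control library 2 (0.0551). On the second principal component AML1/ETO library 1 and control library 1 lay together, at 106 and 102. These values cannot tell whether the replicate numbers pair the samples. With the replicate block 951 genes rose and 1098 fell in place of 1734 and 2128, 6 members rose and 1 fell, and 21 genes of the second list rose and 10 fell in place of 34 and 17. Among the genes named from the second list, Igf2r (adjusted p = 0.0501) and Atp6v1g2 (adjusted p = 0.228) lost their calls with the block. The block takes residual degrees of freedom.

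Among 26 members that did not pass, 9 changed sign in some setting and 7 passed in some setting. With totals the log2 fold changes were −0.0767 for Ctsd, −0.115 for Atp6v1a and −0.0942 for Becn1. With limma-voom they were 0.0841 for Hexa, −0.256 for Atp6v1a and −0.0997 for Becn1. Hexa was at 3e-04 with DESeq2 and 4e-04 with its size factors, and with the replicate block Hexa was at 0.0206 and Becn1 at −0.0284. With 1 library left out, log2 fold changes ran from −0.265 to 0.214 for Ctsd, −0.49 to 0.223 for Ctsl, −0.281 to 0.221 for Hexa, −0.298 to 0.0908 for Atp6v0d1, −0.178 to 0.326 for Atp6v1a, −0.224 to 0.187 for Becn1, −0.495 to 0.0786 for Atg5, −0.135 to 0.448 for Atg9a and −0.51 to 0.0381 for Atg16l1. Without the first library of both groups they were 0.202 for Hexa, −0.308 for Atp6v1a, −0.228 for Becn1 and 0.0289 for Atg5. The cause was not tested. Ctsh, at 0 reads in AML1/ETO library 2 and control library 1, had 114 reads in AML1/ETO library 1, the library with the lowest total.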
